A study of Homo sapiens with 4 samples.

Results

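The axon guidance genes described here are the semaphorins of classes 3 to 7, the neuropilins and plexins that receive them, the ephrins and Eph receptors, the netrins, and SLIT with its ROBO receptors. They were taken by gene symbol, whatever their values. Of 18175 listed genes and loci, 50 carried such a symbol: 16 semaphorins, 2 neuropilins, 8 plexins, 7 ephrins, 9 Eph receptors, 3 netrins, 1 SLIT and 4 ROBO receptors. The UNC5 netrin receptors and the other SLIT genes were not analysed here. Expression was measured by RNA sequencing in SK-MEL-28 and A375, human melanoma cell lines grown in culture. From each line came 1 library of cells given siLINC01291, a small interfering RNA named for the long non-coding RNA LINC01291, and 1 library of cells given siNC, whose name marks it as the control siRNA. The labels list a further agent, EL, for both lines, and do not say what it is.

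Guidance cues were first described in the nervous system, where they steer growing axons by attraction or repulsion, and the same ligands and receptors act on cell adhesion, migration and vessel growth elsewhere. Melanocytes descend from the neural crest, whose migrating cells respond to semaphorins, ephrins and SLITs. In each pathway a ligand on a neighbouring cell or in the matrix binds a transmembrane receptor, which acts on the actin cytoskeleton through small GTPases.

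The libraries held 29351240 to 31815336 counts, of which the guidance genes took between 0.164 and 0.236%. Levels are given as deposited FPKM, the fragments per kilobase of gene length at equal sequencing depth, which can be compared between genes. LINC01291 was at 3.70 FPKM with siLINC01291 against 8.11 FPKM with siNC in SK-MEL-28, and at 2.28 against 6.39 FPKM in A375. It was lower with siLINC01291 in both lines, as the labels have it. The melanocyte markers did not look alike in the lines: 9 of 10 were at an FPKM of at least 1 in both SK-MEL-28 libraries and 6 of 10 in both A375 libraries. Their summed level was 1624 to 1941 FPKM in SK-MEL-28 and 95.7 to 136 FPKM in A375, where MLANA, DCT, TYR and TYRP1 stayed below an FPKM of 1. Markers of other cell types with values here were KRT10, KRT14, LUM, KDR, SYT1 and TUBB3. KRT10 lay between 18.0 and 27.7 FPKM and LUM between 3.25 and 8.07 FPKM over the 4 libraries. KRT14 had 7.32 and 6.16 FPKM in the siLINC01291 and siNC libraries of A375 and stayed below an FPKM of 1 in SK-MEL-28. KDR reached an FPKM of 1 in the A375 siLINC01291 library alone. The neuronal pair SYT1 and TUBB3 stayed below an FPKM of 1 in all 4 libraries. With 1 library per line and treatment, differences within a line have no replicate check. In bulk RNA, a lower level can come from fewer cells that express a gene or from less RNA per cell, and these cannot be told apart.

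The first comparison, SK-MEL-28 against A375, asked which guidance cues and receptors each line expressed. An FPKM of at least 1 in either library of a line was taken as expressed. By that measure A375 expressed 39 of the 50 genes and SK-MEL-28 expressed 29, with 22 in both lines, 17 in A375 alone, 7 in SK-MEL-28 alone and 4 in neither. Differences were tested with edgeR's quasi-likelihood test on the counts with siRNA as a second term, with Benjamini-Hochberg adjustment over 13501 genes. Each line's 2 libraries differ in siRNA, and nothing says that they came from separate cultures, so these p-values measure the spread between these libraries only.

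**Figure D1:**
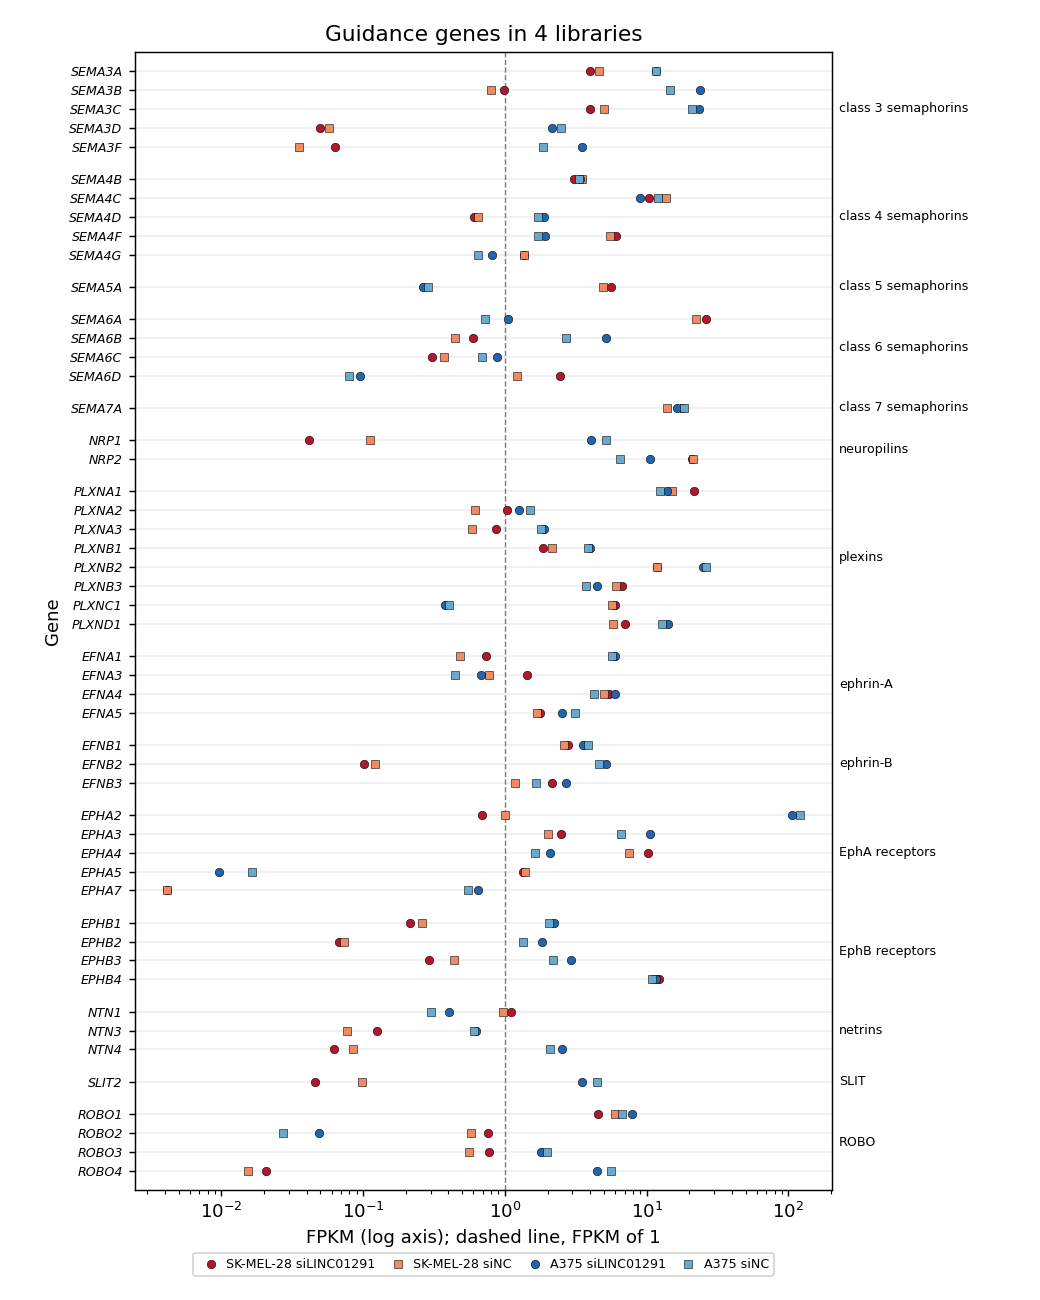
Deposited FPKM of the 50 guidance genes in the 4 libraries, on a log axis and grouped by family, with red and orange points for SK-MEL-28, dark and light blue points for A375, circles for siLINC01291 and squares for siNC. EPHA2 lies furthest to the right, at 106 and 122 FPKM in A375, while EPHB4 and SEMA7A have all 4 points close together.

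Secreted class 3 semaphorins were lower in SK-MEL-28, 5 of 5 by the test, where 36.3% of all genes tested were lower. SEMA3B, SEMA3D and SEMA3F passed the filter on low values through A375 alone, so their FPKM could not overlap between the lines. This leaves SEMA3A and SEMA3C. These ligands bind neuropilins, which pass the signal on through class A plexins. The summed level of all 5 class 3 semaphorins was 9.11 and 10.5 FPKM in the siLINC01291 and siNC libraries of SK-MEL-28, against 64.5 and 51.7 FPKM in those of A375. SEMA3C had 3.99 FPKM with siLINC01291 and 4.99 FPKM with siNC in SK-MEL-28, against 23.3 and 20.9 FPKM with the same siRNAs in A375 (log2 change -2.14, SE 0.13, edgeR adjusted p = 2.06e-05). SEMA3A, the classical repellent that acts through neuropilin-1, had 4.02 and 4.60 FPKM in the siLINC01291 and siNC libraries of SK-MEL-28, against 11.7 and 11.7 FPKM in those of A375 (log2 change -1.28, SE 0.10, edgeR adjusted p = 5.10e-05). Both genes were expressed in both lines, and of all such genes 67.3% differed. SEMA3B had 0.984 FPKM with siLINC01291 and 0.794 FPKM with siNC in SK-MEL-28, against 23.8 and 14.7 FPKM with the same siRNAs in A375 (log2 change -4.25, SE 0.14, edgeR adjusted p = 1.68e-06). SEMA3F, a ligand of neuropilin-2, had 0.0634 and 0.0351 FPKM in the siLINC01291 and siNC libraries of SK-MEL-28, against 3.52 and 1.85 FPKM in those of A375 (log2 change -5.58, SE 0.23, edgeR adjusted p = 4.31e-06). SEMA3D had 0.0494 FPKM with siLINC01291 and 0.0575 FPKM with siNC in SK-MEL-28, against 2.15 and 2.50 FPKM with the same siRNAs in A375, a log2 change of -5.27 (SE 0.20).

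Membrane-bound semaphorins pointed the other way in part. Of all 15 semaphorins tested, class 3 included, 6 were higher and 7 lower in SK-MEL-28, where 36.1% of all genes tested were higher and 36.3% lower. The 5 genes that were higher in SK-MEL-28 and at least 2-fold apart were SEMA6A, SEMA5A, SEMA6D, SEMA4F and SEMA4G. Of all genes tested, 35.7% were at least 2-fold apart in either direction. SEMA6A, a transmembrane ligand of class A plexins, was the semaphorin with the highest FPKM in SK-MEL-28. It had 26.4 FPKM with siLINC01291 and 22.4 FPKM with siNC in SK-MEL-28, against 1.05 and 0.728 FPKM with the same siRNAs in A375 (log2 change 4.95, SE 0.12, edgeR adjusted p = 7.84e-07). SEMA5A, which carries thrombospondin repeats outside the cell, had 5.56 and 4.94 FPKM in the siLINC01291 and siNC libraries of SK-MEL-28, against 0.265 and 0.286 FPKM in those of A375 (log2 change 4.42, SE 0.14, edgeR adjusted p = 1.49e-06). SEMA6D, a ligand of plexin-A1, had 2.45 FPKM with siLINC01291 and 1.23 FPKM with siNC in SK-MEL-28, against 0.0956 and 0.0795 FPKM with the same siRNAs in A375. Of these 5, SEMA5A, SEMA6D and SEMA4G passed the filter on low values through SK-MEL-28 alone, so their FPKM could not overlap between the lines. SEMA6A just reached an FPKM of 1 in a single A375 library, and SEMA4F was the only gene of the 5 above 1 in every library. SEMA6B was lower in SK-MEL-28, at -2.72 (SE 0.18) on the log2 scale, and so was the plexin-B1 ligand SEMA4D, at -1.36 (SE 0.13). SEMA6B and SEMA4D passed the filter through A375 alone. SEMA7A, which is held in the membrane by a lipid anchor and binds plexin-C1 and integrins, did not pass the test, with 17.7 and 14.0 FPKM in the siLINC01291 and siNC libraries of SK-MEL-28, against 16.5 and 18.3 FPKM in those of A375 (edgeR adjusted p = 0.866). SEMA4B did not pass either (edgeR adjusted p = 0.339). SEMA4C, a ligand of plexin-B2, passed with a small difference (log2 change 0.37, SE 0.090, edgeR adjusted p = 0.00903). This call was lost when the siRNA term alone was dropped from the fit of all 4 libraries. It was also lost when the siRNA term and any of 3 libraries were dropped together. The log2 change was then 0.61 (SE 0.24) without the A375 siNC library and 0.17 (SE 0.23) without the A375 siLINC01291 library. Without the SK-MEL-28 siNC library it was 0.14 (SE 0.20).

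Neuropilins and plexins, the semaphorin receptors, differed in both directions between the lines. NRP1, the neuropilin that binds SEMA3A and also VEGF, had 0.0413 FPKM with siLINC01291 and 0.112 FPKM with siNC in SK-MEL-28, against 4.08 and 5.19 FPKM with the same siRNAs in A375 (log2 change -5.77, SE 0.23, edgeR adjusted p = 3.38e-06). NRP2 had 21.0 and 21.2 FPKM in the siLINC01291 and siNC libraries of SK-MEL-28, against 10.5 and 6.49 FPKM in those of A375 (log2 change 1.51, SE 0.17, edgeR adjusted p = 0.000256). NRP2 made up 99.8 and 99.5% of the neuropilin FPKM in the siLINC01291 and siNC libraries of SK-MEL-28 and 72.1 and 55.6% in those of A375. PLXNC1, the receptor of SEMA7A, had 6.03 FPKM with siLINC01291 and 5.68 FPKM with siNC in SK-MEL-28, against 0.381 and 0.402 FPKM with the same siRNAs in A375 (log2 change 4.06, SE 0.13, edgeR adjusted p = 1.53e-06). Its ligand SEMA7A, given above, was expressed in both lines. Of the 8 plexins tested, 3 were higher in SK-MEL-28 (PLXNC1, PLXNB3 and PLXNA1), 4 were lower (PLXNA3, PLXNB1, PLXNB2 and PLXND1) and PLXNA2 did not pass (edgeR adjusted p = 0.0610), where 72.4% of all genes tested differed. NRP1, PLXNC1 and PLXNA3 were each expressed in a single line, so their FPKM could not overlap between the lines. PLXNB2 led in A375, and PLXNA1 in SK-MEL-28. PLXNB2 had 11.8 and 11.8 FPKM in the siLINC01291 and siNC libraries of SK-MEL-28, against 24.9 and 26.5 FPKM in those of A375, and the vascular semaphorin receptor PLXND1 had 7.04 FPKM with siLINC01291 and 5.82 FPKM with siNC in SK-MEL-28, against 14.1 and 12.9 FPKM with the same siRNAs in A375. On TMM-normalised counts the log2 changes were -0.96 (SE 0.088) for PLXNB2 and -0.91 (SE 0.094) for PLXND1. PLXNA1 stood at 0.61 (SE 0.11). Its call was lost when the siRNA term and either A375 library were dropped together. The log2 change was then 0.57 (SE 0.25) without the siNC library and 0.70 (SE 0.25) without the siLINC01291 library.

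Eph receptors, the largest family of receptor tyrosine kinases, were dominated by EPHA2 in A375. EPHA2, often abundant in melanoma and other cancers, had 0.689 FPKM with siLINC01291 and 0.999 FPKM with siNC in SK-MEL-28, against 106 and 122 FPKM with the same siRNAs in A375 (log2 change -6.91, SE 0.13, edgeR adjusted p = 5.37e-07). It made up 76.8 and 82.8% of the summed Eph receptor FPKM in the siLINC01291 and siNC libraries of A375. EPHA2 passed the filter on low values through A375 alone, so its FPKM could not overlap between the lines. In SK-MEL-28 the leading Eph receptors were EPHB4, the receptor of ephrin-B2, and EPHA4, which binds ephrins of both classes. EPHA4 had 10.3 and 7.50 FPKM in the siLINC01291 and siNC libraries of SK-MEL-28, against 2.09 and 1.64 FPKM in those of A375 (log2 change 2.41, SE 0.11, edgeR adjusted p = 5.02e-06). EPHB4 had 12.2 FPKM with siLINC01291 and 11.4 FPKM with siNC in SK-MEL-28, against 11.6 and 10.96 FPKM with the same siRNAs in A375, and did not pass (edgeR adjusted p = 0.0545). EPHA5 had 391 and 404 counts in the siLINC01291 and siNC libraries of SK-MEL-28, against 3 and 5 counts in those of A375. Between the siNC libraries this is a ratio of 96.6 with a 95% exact interval of 41.1 to 299, which covers counting error only. EPHA7 lay under an FPKM of 1 throughout and showed the opposite pattern, with 2 and 2 counts in these libraries of SK-MEL-28 against 337 and 281 in those of A375. EPHA3, EPHB1, EPHB2 and EPHB3 were lower in SK-MEL-28, by 3.31-fold, 8.01-fold, 19.8-fold and 6.19-fold. Of the 8 Eph receptors tested, 2 were higher and 5 lower, where 72.4% of all genes tested differed. EPHB1, EPHB2 and EPHB3, like EPHA2, passed the filter on low values through A375 alone, and EPHA5 through SK-MEL-28 alone. This leaves EPHA3, EPHA4 and EPHB4.

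**Figure D2:**
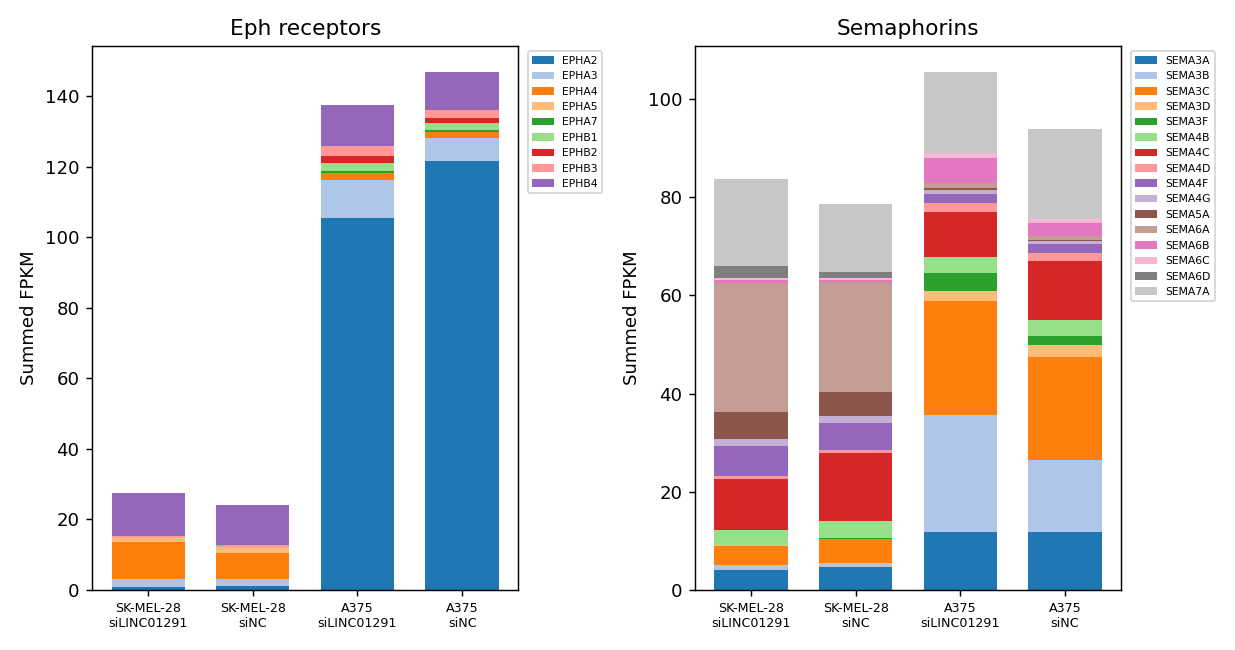
Summed FPKM of the Eph receptors (left) and semaphorins (right) in each library, with 1 colour per gene and no error bars because each bar is a single library. EPHA2 fills most of the 2 A375 bars on the left, and on the right SEMA6A is the largest share of both SK-MEL-28 bars.

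Ephrins, the membrane-bound ligands of Eph receptors, had summed levels of 14.4 and 11.9 FPKM in the siLINC01291 and siNC libraries of SK-MEL-28, against 26.6 and 23.8 FPKM in those of A375. The highest single value was 6.00 FPKM, for EFNA1. EFNA1, the main ligand of EPHA2, had 0.738 and 0.486 FPKM in the siLINC01291 and siNC libraries of SK-MEL-28, against 6.00 and 5.74 FPKM in those of A375 (log2 change -3.10, SE 0.20, edgeR adjusted p = 2.48e-05). EFNB2, the ligand of EPHB4, had 0.102 FPKM with siLINC01291 and 0.122 FPKM with siNC in SK-MEL-28, against 5.17 and 4.64 FPKM with the same siRNAs in A375 (log2 change -5.28, SE 0.19, edgeR adjusted p = 2.55e-06). EFNA1 and EFNB2 passed the filter on low values through A375 alone, so their FPKM could not overlap between the lines. EFNA4, EFNB1 and EFNB3 were expressed in both lines and did not pass (edgeR adjusted p = 0.291, 0.102 and 0.192). EFNA5 was lower in SK-MEL-28 (log2 change -0.53, SE 0.15, edgeR adjusted p = 0.0167). This call was lost when the siRNA term was dropped together with the A375 siNC library or either SK-MEL-28 library. The log2 change was then -0.35 (SE 0.20) without the A375 siNC library. It was -0.52 (SE 0.23) without the SK-MEL-28 siNC library and -0.56 (SE 0.23) without the SK-MEL-28 siLINC01291 library. EFNA3 was not tested because it reached an FPKM of 1 in a single library.

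SLIT2, ROBO3 and ROBO4 were expressed in A375 alone, ROBO1 in both lines and ROBO2 in neither. SLIT2, ROBO3 and ROBO4 thus passed the filter on low values through A375 alone, and their FPKM could not overlap between the lines. SLIT2, the secreted ligand of ROBO receptors, had 0.0461 and 0.0981 FPKM in the siLINC01291 and siNC libraries of SK-MEL-28, against 3.51 and 4.48 FPKM in those of A375 (log2 change -5.64, SE 0.20, edgeR adjusted p = 2.11e-06). ROBO1, its widely expressed receptor, had 4.58 FPKM with siLINC01291 and 6.00 FPKM with siNC in SK-MEL-28, against 7.85 and 6.75 FPKM with the same siRNAs in A375 and did not pass (edgeR adjusted p = 0.105). ROBO4, which is best known from endothelial cells, had 4 and 3 counts in the siLINC01291 and siNC libraries of SK-MEL-28, against 951 and 1151 counts in those of A375. That is 4.50 and 5.61 FPKM in A375, and the siNC libraries differed 321-fold with an exact interval of 109 to 1558. Of 4 endothelial markers, KDR was the one with values here, at 0.0643 and 0.0428 FPKM in the siLINC01291 and siNC libraries of SK-MEL-28 and 2.37 and 0.784 FPKM in those of A375. Its part in the ROBO4 result was not tested. ROBO2 ran the other way at low level, with 0.765 and 0.574 FPKM in the siLINC01291 and siNC libraries of SK-MEL-28, against 0.0489 and 0.0271 FPKM in those of A375.

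Netrins were scarce. NTN4, a netrin of basement membranes that binds laminin, had 0.0623 FPKM with siLINC01291 and 0.0855 FPKM with siNC in SK-MEL-28, against 2.53 and 2.07 FPKM with the same siRNAs in A375 (log2 change -4.77, SE 0.25, edgeR adjusted p = 1.06e-05). NTN4 passed the filter on low values through A375 alone, so its FPKM could not overlap between the lines. NTN1, the founding ligand of this family, had 1.10 and 0.968 FPKM in the siLINC01291 and siNC libraries of SK-MEL-28, against 0.405 and 0.302 FPKM in those of A375, and NTN3 stayed under an FPKM of 1 in all 4 libraries.

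Across the families, 44 of the 50 genes passed the filter of an FPKM of at least 1 in 2 libraries and were tested, and 36 of these differed between the lines, 12 higher and 24 lower in SK-MEL-28. Of all genes tested, 72.4% differed, 36.1% higher and 36.3% lower. The filter bears on this count, because 22 of the 44 were expressed in a single line. The FPKM of these 22 could not overlap between the lines, and all 22 differed by the test. Among the 22 genes expressed in both lines, 14 differed (7 higher and 7 lower), against 67.3% of all 10988 such genes, a share near the background. At an unadjusted p under 0.05, 38 of the 44 differed, against 74.6% of all genes tested. With no filter, all 50 were tested and 44 differed, EPHB4 and PLXNA2 now among them, against 65.6% of 18175. The sizes were wide: 21 of the 44 were at least 4-fold apart, against 16.9% of all genes tested, counts on which the same filter bears. ROBO4, SEMA4G, EFNA3, EFNA4, EFNB2 and PLXNB3 share between 15.0 and 47.9% of their exonic bases with other genes of GENCODE 29. Whether reads were counted by strand is not stated, so their values are uncertain.

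**Figure D3:**
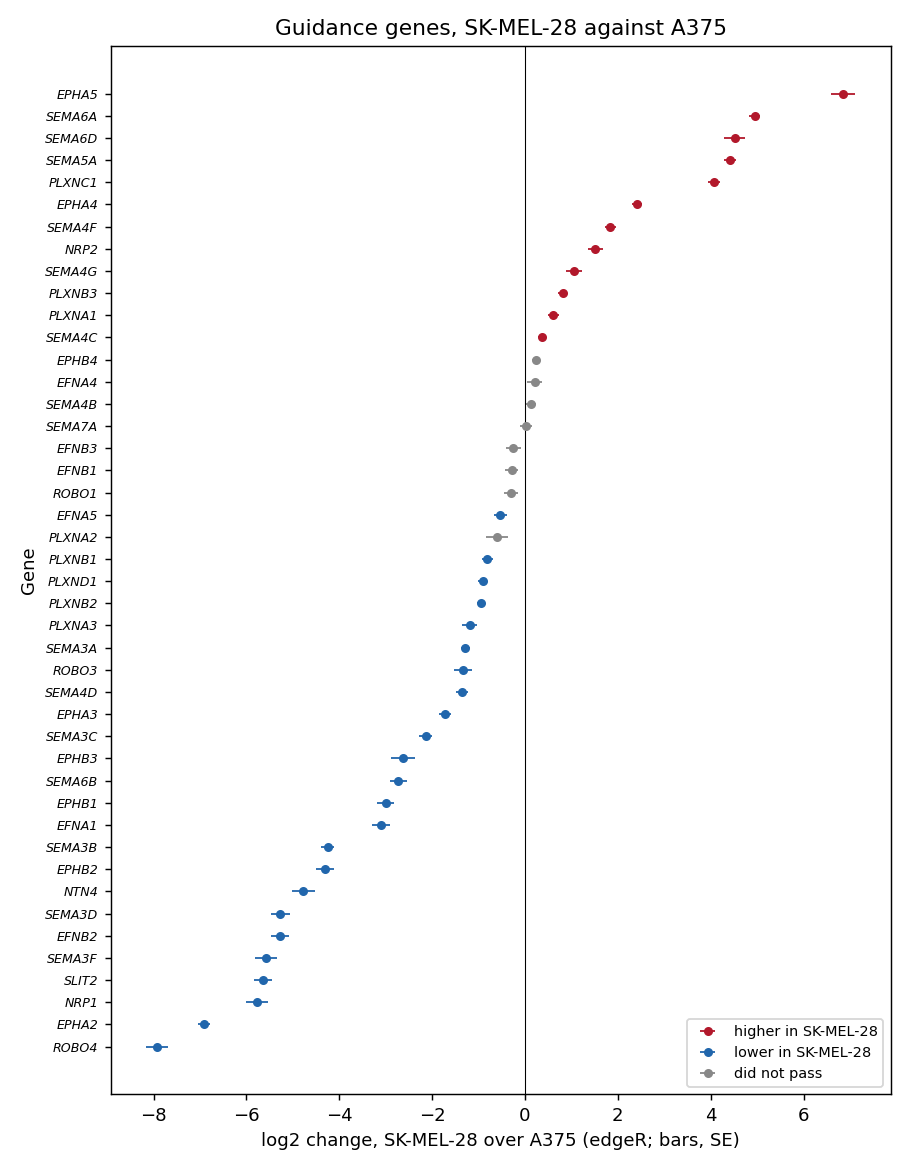
Log2 change of SK-MEL-28 over A375 for the 44 guidance genes tested, with the SE of edgeR's estimate as bars and colours for genes higher in, lower in, or not different between the lines by the test. The changes run from 6.85 for EPHA5 to -7.93 for ROBO4, and 8 genes in grey around 0 did not pass.

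The second comparison asked whether siLINC01291 changed guidance genes relative to siNC over both lines, with the cell line as a block. None of the 44 genes tested passed in either direction (edgeR's quasi-likelihood test, Benjamini-Hochberg adjustment), where 0.222% of all genes tested were higher and 0.674% lower (0.896% in all). At an unadjusted p under 0.05 there were 13 in edgeR, 9 higher and 4 lower, against 16.9% of all genes. There were 8 in DESeq2, against 7.75% of all genes, and 8 in limma, against 15% of all genes. DESeq2 and limma called 0 of the 44 as well, where DESeq2 called 2.24% of all genes and limma 0%. Because limma called no gene at all, its result says nothing particular about guidance genes. The median log2 change was 0.069 over the 44 genes and 0.0070 over all genes tested. The fit has 1 residual degree of freedom, and a missed threshold does not show that a gene was unaffected.

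The smallest adjusted p-values belonged to EFNB3, SEMA4C and SEMA3F. EFNB3, a transmembrane ephrin, had 2.72 FPKM with siLINC01291 against 1.66 FPKM with siNC in A375, and 2.15 FPKM with siLINC01291 against 1.17 FPKM with siNC in SK-MEL-28. Both siLINC01291 libraries were above both siNC libraries (log2 change 0.75, SE 0.16, edgeR adjusted p = 0.0940, higher in 2 of 2 lines). SEMA4C had 9.05 FPKM with siLINC01291 against 11.97 FPKM with siNC in A375, and 10.5 FPKM with siLINC01291 against 13.8 FPKM with siNC in SK-MEL-28 (log2 change -0.44, SE 0.090, edgeR adjusted p = 0.0940, lower in 2 of 2 lines). SEMA3F had 3.52 FPKM with siLINC01291 against 1.85 FPKM with siNC in A375, and 0.0634 FPKM with siLINC01291 against 0.0351 FPKM with siNC in SK-MEL-28 (log2 change 0.89, SE 0.19, edgeR adjusted p = 0.0952), and its SK-MEL-28 values rest on 9 and 5 counts. SEMA3B, SEMA6B, SEMA6D, EPHA3 and EPHA4 had positive changes in both lines, at 0.52 (SE 0.13), 0.72 (SE 0.18), 0.82 (SE 0.21), 0.48 (SE 0.13) and 0.37 (SE 0.10) on the log2 scale, with edgeR adjusted p-values of 0.125 to 0.157. The exact counting interval of the ratio included 1 for SEMA6D in A375 (0.629 to 2.17, from 26 and 21 counts). It also included 1 for SEMA3B (0.958 to 1.53) and SEMA6B (0.918 to 1.83) in SK-MEL-28. NRP1, SLIT2 and EPHA2 had negative changes in both, at -0.54 (SE 0.20), -0.50 (SE 0.17) and -0.33 (SE 0.11), with edgeR adjusted p-values of 0.207 to 0.245.

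Within A375, 0 of 39 expressed guidance genes were at least 2-fold higher or lower with siLINC01291, where 0.929% of all expressed genes were higher and 1.06% lower. At 1.5-fold, a limit chosen after the values were seen, 6 were higher and 0 lower, against 3.95 and 3.94% of all expressed genes. The 6 were SEMA6B, SEMA3F, EFNB3, NRP2, SEMA3B and EPHA3. SEMA6B had 5.20 FPKM with siLINC01291 and 2.71 FPKM with siNC, a ratio of 1.85-fold (interval 1.64 to 2.10), where the interval covers counting error only. SEMA3B had 23.8 and 14.7 FPKM in these libraries, a ratio of 1.56-fold (interval 1.49 to 1.64). NRP2 had 10.5 and 6.49 FPKM, a ratio of 1.57-fold, and EPHA3 had 10.5 and 6.57 FPKM, a ratio of 1.55-fold (interval 1.45 to 1.66). The lowest log2 ratios were those of SEMA4C (-0.45), SLIT2 (-0.40), NRP1 (-0.40), ROBO4 (-0.37) and EFNA5 (-0.36). EPHA2, the most abundant gene of the set, stood at 0.840-fold (interval 0.821 to 0.860).

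Within SK-MEL-28, 0 of 29 expressed guidance genes were at least 2-fold apart, where 1.72% of all expressed genes were higher and 1.54% lower. At 1.5-fold, 4 were higher and 0 lower, against 6.32 and 5.08%. SEMA6D had 2.45 FPKM with siLINC01291 and 1.23 FPKM with siNC, a ratio of 1.95-fold (interval 1.70 to 2.24). EFNA3 followed at 1.82-fold (interval 1.25 to 2.69), EFNB3 at 1.79-fold (interval 1.41 to 2.27) and PLXNA2 at 1.66-fold (interval 1.41 to 1.95). PLXNA1 had the next highest log2 ratio, 0.48. The lowest log2 ratios among expressed genes were those of SEMA4C (-0.43), ROBO1 (-0.43), SEMA3C (-0.36), PLXNB1 (-0.25) and SEMA3A (-0.23). Below the expression minimum, NRP1 had 14 counts with siLINC01291 and 38 with siNC, and SLIT2 had 15 and 32.

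Of the 22 genes expressed in both lines, 15 had log2 ratios of the same sign in both (10 higher and 5 lower with siLINC01291), or 68.2%, against 64.7% of 10988 such genes. EFNB3 was the only one at least 1.5-fold higher in both lines. For 5 of the 22 the counting intervals lay on opposite sides of 1 in the lines, against 6.98% of the 10988 genes, and for 4 with whole library totals in place of TMM, against 6.99%.

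**Figure D4:**
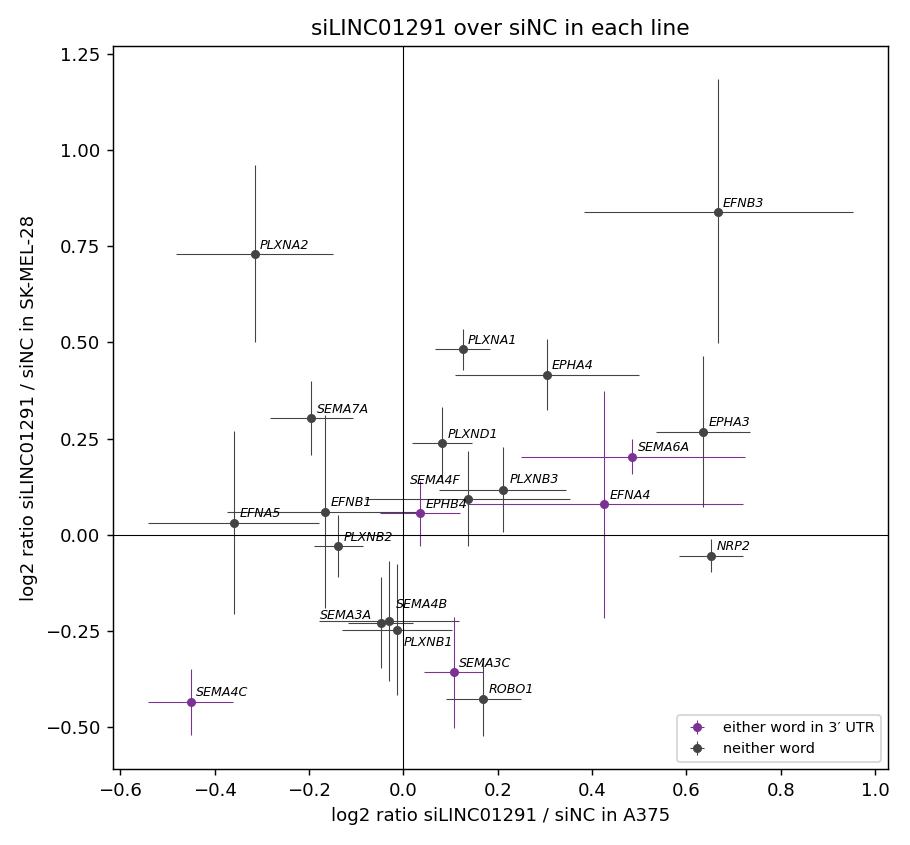
Log2 ratio of siLINC01291 to siNC in A375 (horizontal) and SK-MEL-28 (vertical) for the 22 guidance genes expressed in both lines, from TMM-normalised counts with no prior count, with 95% exact intervals of counting error as bars. EFNB3 lies furthest to the upper right and SEMA4C furthest to the lower left, and purple marks genes with CTATGAA or TCTATGA in the 3′ UTR.

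Short words in 3′ UTRs were then looked up, because CTATGAA and TCTATGA had gone with lower values after siLINC01291 in an earlier analysis of these same libraries. The words were picked on these data, guidance genes included, so what follows is a description. A 3′ UTR was searched on the sense strand in 49 of the 50 genes, in 1 principal transcript per gene of GENCODE 29, and 11 held either word: NRP1, SLIT2, SEMA3C, SEMA3D, SEMA4C, SEMA5A, SEMA6A, EPHA5, EPHB4, EFNA4 and ROBO2. That is 22.4%, against 13.4% of 18448 searched 3′ UTRs, which include genes without values here. Among genes that were tested it was 22.7%, against 14.5% of all genes. The length of the 3′ UTRs was not taken into account. The words overlap in TCTATGAA, which 3.31% of these UTRs hold, and which LINC01291 holds once in each of 3 annotated transcripts. For the genes with the lowest changes, those with the joined word, and LINC01291, 1 site each is shown 5′ to 3′ as DNA in windows of 30 bases (GENCODE 29, GRCh38), with the word in capitals.
LINC01291 (chr2:74931480-74931509, plus strand): ggtgtctggacTCTATGAAgaatcttcatg
NRP1 (chr10:33178308-33178337, minus strand): taccaggcagcCTATGAAttaacccaaaga
SLIT2 (chr4:20619720-20619749, plus strand): gattttttgttTCTATGAgttctaaacagc
SEMA4C (chr2:96860186-96860215, minus strand): agtcattggagCTATGAAggggaaggggtc
SEMA5A (chr5:9041306-9041335, minus strand): gaaccttcggaTCTATGAAagaaaatatag
EFNA4 (chr1:155069433-155069462, plus strand): ctcacttgtctTCTATGAAgacggactctt

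The genes with a word did not all shift one way. Of the 10 that were tested, 6 had a negative and 4 a positive log2 change over both lines, with a median of -0.11, and 5 were lower in both lines (NRP1, SLIT2, SEMA4C, SEMA3D and EPHA5). EPHA5 rests on 3 counts with siLINC01291 against 5 with siNC in A375, and SEMA3D on 12 against 14 in SK-MEL-28. Of the 34 tested without a word, 12 were negative and 22 positive, with a median of 0.12, and 5 were lower in both lines. Over all genes tested, the medians were -0.11 for 1551 genes with and 0.020 for 9182 genes without a word. Of these, 841 with and 2746 without a word were lower in both lines. SEMA5A and EFNA4, which hold the joined word, stood at 0.047 (SE 0.13) and 0.26 (SE 0.16). SEMA6A, with CTATGAA, stood at 0.32 (SE 0.11). Neither word was found for SEMA3F, SEMA6D, EFNB3, SEMA6B and SEMA3B, whose changes were the 5 highest. Both words were also absent from 77.3% of the guidance genes tested and 85.5% of all genes tested with a searched 3′ UTR.

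Several of the genes lie close together, and neighbours did not always differ alike between the lines (positions from GENCODE 29 on GRCh38, not used for counting). ROBO3 and ROBO4 on chromosome 11 are 2220 bases apart on opposite strands, and both were lower in SK-MEL-28, with fitted log2 changes of -1.34 (SE 0.19) and -7.93 (SE 0.23). SEMA3F and SEMA3B on chromosome 3 are 78482 bases apart on the same strand and were both lower, as given above. EFNA4, EFNA3 and EFNA1 follow one another on chromosome 1, with gaps of 9318 and 39921 bases. Of these, EFNA1 was 8.59-fold lower in SK-MEL-28, while EFNA4 did not differ by the test. As above, ROBO3, ROBO4, SEMA3F, SEMA3B and EFNA1 passed the filter on low values through A375 alone. Their FPKM could not overlap between the lines, so a shared direction of such neighbours was fixed by the filter.

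Other genes of these pathways were followed as a list of 66 co-receptors, further cues and cytoplasmic effectors, written with earlier results of these data known. Of these, 53 had values and 51 were tested for siLINC01291 against siNC, of which 0 rose and 0 fell (edgeR's quasi-likelihood test), against 0.896% of all genes called. At an unadjusted p under 0.05 there were 14, against 16.9% of all genes, and the median log2 change was 0.062, against 0.0070. The largest changes were those of the heparan sulfate proteoglycan SDC3 at 0.66 (SE 0.13), the actin-oxidising plexin effector MICAL1 at 0.51 (SE 0.12), the neogenin ligand RGMB at -0.48 (SE 0.13), the collapsin response mediator DPYSL5 at 0.39 (SE 0.12), the Ras GTPase-activating protein RASA1 at -0.36 (SE 0.13) and the plexin-binding exchange factor FARP2 at 0.33 (SE 0.10) on the log2 scale. Their edgeR adjusted p lay between 0.0909 and 0.255.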

How the data were processed

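RNA was sequenced in 4 libraries of 2 cell lines. Per the labels' protocols, mRNA was captured on oligo(dT) beads. Fastp removed adapters, duplicates and low-quality reads, ribosomal reads were dropped, HISAT2 mapped the rest, StringTie built new transcripts, and HTSeq counted genes, known and new. Without a role, hg19, DESeq2 and edgeR stand in the submitters' processing notes. The deposited counts are whole numbers, not normalised. The deposited CPM were scaled by the authors to totals of which 0.215 to 0.343% lie outside the listed genes. The deposited FPKM equal the authors' CPM divided by 1 length per gene. The deposited TPM were not used.

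Counts were normalised with TMM and tested in edgeR 4.0.16 (R 4.3.3) with cell line and siRNA as terms, keeping genes that reached an FPKM of 1 in 2 or more libraries, at an adjusted p of 0.05. The SE is the log2 change divided by the square root of the F statistic. The pairing comes from the cell line, which both libraries of a pair share. Within a line, log2 ratios used a prior count of 2, and intervals are exact binomial 95% intervals of counting error only. DESeq2 1.42.0 and limma 3.58.1, limma on log2(FPKM + 1), were alternatives. The genes and lists were chosen with earlier results of these data known. Genes were named if they passed a test, were among the 4 highest of their family by mean FPKM, or had 1 of the 5 highest or lowest ratios of a line. UTRs of at least 50 bases were searched with Python 3.11.15. Not every site found is reported here. Coordinates come only from GENCODE 29 on GRCh38 and were not used for counting.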

Additional observations from a re-analysis of the deposited data

Results flagged for a closer look

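In 5 guidance genes expressed in both lines, the siLINC01291 library lay above siNC in one line and below it in the other, with the 95% counting intervals on opposite sides of 1. The genes were picked by that rule, which 6.98% of all 10988 genes expressed in both lines met. With 1 library per line and treatment, the difference between the lines was not tested for any of them. PLXNA2, a class A plexin, stood at 1.66-fold (interval 1.41 to 1.95) in SK-MEL-28 and 0.803-fold (interval 0.716 to 0.902) in A375, a difference of 1.04 on the log2 scale (SK-MEL-28 minus A375). NRP2 stood at 0.963-fold (interval 0.934 to 0.992) in SK-MEL-28 and 1.57-fold in A375, a difference of -0.71. With whole library totals in place of TMM the log2 ratio of NRP2 in SK-MEL-28 was -0.019 and its interval included 1, so that NRP2 no longer met the rule, while the other 4 did. ROBO1 had 0.744-fold (interval 0.695 to 0.797) in SK-MEL-28 and 1.12-fold (interval 1.06 to 1.19) in A375, a difference of -0.60. SEMA7A had 1.23-fold (interval 1.15 to 1.32) in SK-MEL-28 and 0.874-fold (interval 0.822 to 0.929) in A375, a difference of 0.50. SEMA3C had 0.780-fold (interval 0.706 to 0.862) in SK-MEL-28 and 1.08-fold (interval 1.03 to 1.12) in A375, a difference of -0.46.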

How the results depend on the processing

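No guidance gene passed the siLINC01291 test under any alternative run, whereas over all genes the 30 higher and 91 lower calls became 146 and 238 with no filter, 5 and 27 at an FPKM of at least 5, 99 and 203 with DESeq2, and 0 and 0 with limma. Without the cell line as a replicate block they became 0 and 0, with 51 genes at an unadjusted p under 0.05. For SK-MEL-28 against A375, guidance genes were 8 higher and 8 lower at an FPKM of at least 5 (20 tested), against 12 and 24, and calls over all genes were 3003 higher and 2997 lower. With each library left out in turn, guidance genes called ranged from 10 to 12 higher and 23 to 24 lower, and all genes from 3235 to 4213 higher and 3031 to 4073 lower. Whole library totals in place of TMM, an alternative chosen after seeing the data, moved the median of all genes from -0.021 to -0.19 and gave 11 higher and 28 lower guidance genes; 4 were gained (EFNB1, EFNB3, PLXNA2 and ROBO1) and SEMA4C was lost. Within a line, 2-fold counts over all genes were 11 higher and 45 lower in A375 and 49 and 83 in SK-MEL-28 at an FPKM of at least 5. At 1.5-fold, also chosen after seeing the data, guidance genes higher were 6 and 4, and all genes 523 higher and 522 lower in A375 and 780 and 627 in SK-MEL-28. Uncalled values that changed sign and moved by more than 1 SE were SEMA3C for siLINC01291 without the block (0.028), and between the lines SEMA4B (-0.039 with whole totals, -0.027 with limma), SEMA7A (-0.14 with whole totals, -0.13 with limma) and, with each library left out in turn, SEMA7A (-0.13 to 0.18), EFNA4 (-0.00347 to 0.43) and EFNB3 (-0.72 to 0.15). A further 17 sign changes stayed within 1 SE. Except where fewer genes were tested, the cause was not tested. In the left-out runs, the loss of a library and of the siRNA term cannot be told apart. Depth limits genes with few counts in a line, such as ROBO4, EPHA5 and EPHA7.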

Other observations

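Of the 51 genes of the wider guidance list that were tested, 25 were higher and 18 lower in SK-MEL-28 (edgeR, 84.3% against 72.4% of all genes). The list mixes co-receptors, cues and cytoplasmic effectors. Of the 51, 4 were expressed in a single line, so their FPKM could not overlap between the lines, and all 4 differed. Of the 47 expressed in both lines, 39 differed (83.0%, against 67.3% of such genes). The genes named here were chosen after their values were seen. DPYSL4, a collapsin response mediator expressed in SK-MEL-28 alone, had 12.7 FPKM with siLINC01291 and 10.6 FPKM with siNC in SK-MEL-28, against 0.0503 and 0.0623 FPKM with the same siRNAs in A375. Its relative DPYSL3 had 1.09 and 1.07 FPKM in the siLINC01291 and siNC libraries of SK-MEL-28, against 17.3 and 18.9 FPKM in those of A375 (log2 change -3.90, SE 0.11, edgeR adjusted p = 1.27e-06). MYO10, an unconventional myosin of filopodia, had 41.0 FPKM with siLINC01291 and 36.3 FPKM with siNC in SK-MEL-28, against 2.46 and 2.64 FPKM with the same siRNAs in A375 (log2 change 4.08, SE 0.11, edgeR adjusted p = 1.02e-06). FLRT3, a membrane ligand of UNC5 receptors expressed in A375 alone, had 0.563 and 0.699 FPKM in the siLINC01291 and siNC libraries of SK-MEL-28, against 11.9 and 8.65 FPKM in those of A375. FYN, a Src family kinase, had 27.2 FPKM with siLINC01291 and 24.3 FPKM with siNC in SK-MEL-28, against 4.40 and 4.33 FPKM with the same siRNAs in A375 (log2 change 2.72, SE 0.10, edgeR adjusted p = 2.26e-06).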
